A study of Mus musculus with 2 samples.

Results

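The forkhead genes encode transcription factors that share a winged-helix DNA-binding domain. The set described here was chosen by name: every protein-coding mouse gene of the GENCODE annotation whose symbol is Fox, a letter from a to s, and a number. It held 44 of 21853 protein-coding genes, in 19 subfamilies on 16 chromosomes. The measurement was chromatin immunoprecipitation and sequencing (ChIP-seq) of EP300 (p300), a histone acetyltransferase and coactivator recruited to enhancers and promoters. The tissue was heart of newborn mice (postnatal day 0, strain B6NCrl, no treatment or genetic change named). There was 1 group with 2 replicates. They are numbered as biological replicates, yet their labels name a single biosample and a single donor for the pair, so the spread between them may be technical. No groups were compared, and no test was run.

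As background, forkhead proteins bind sites with the core TAAACA. FoxO proteins are held in the cytoplasm when insulin or growth factors activate AKT, and otherwise switch on genes of metabolism, cell-cycle arrest, stress resistance and protein breakdown. EP300 both acts as a coactivator of FoxO proteins and acetylates them. FoxC and FoxF factors pattern mesoderm and vessels, FoxP factors are mainly repressors with roles in heart, lung, brain and T cells, and FoxA factors are pioneer factors of liver and other endoderm.

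A peak of the authors' optimal list was given to the gene whose protein-coding transcription start site (TSS) lay nearest to its summit, within 100 kb. Distance alone set this assignment, and no contact or effect on a gene was measured. The optimal list is the one kept by the authors' irreproducible discovery rate (IDR) comparison, which retains peaks that rank alike between lists. Of 15570 peaks assigned to any gene, 43 went to forkhead genes. Calls in the list often overlap, so summits within 496 bp were joined into sites: the 43 peaks formed 32 sites, of which 22 held 1 call and 10 held the other 21 calls. Peak strength is the authors' signal value, a height relative to control with no stated formula, used only to rank peaks within a list.

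At least 1 peak was found at 14 of the 44 forkhead genes (31.8%, 95% exact Clopper-Pearson interval 18.6% to 47.6%). Among all protein-coding genes the share was 31.9%, so the family as a whole stood at the background. Peaks were unevenly shared out: 7 forkhead genes (15.9%, 6.64% to 30.1%) had at least 3 peaks, against 8.51% of all genes, a value inside the interval. Intervals cover counting error only. Foxn3 had 10 peaks, Foxp1 5, Foxo6, Foxk1 and Foxs1 4 each, and Foxo3 and Foxj2 3 each. Overlapping calls add to these counts. In joined sites, Foxn3 had 8, Foxp1 5, Foxo6 and Foxk1 3 each, Foxs1 and Foxo3 2 each, and Foxj2 1. Of the other genes, Foxo1 had 2 peaks in 2 sites, and Foxl1 and Foxp4 each had 2 peaks in 1 site. Foxj3, Foxe1, Foxb2 and Foxa2 had 1 peak each. The 6 genes described peak by peak below, those with most peaks, held 30 of the 43; Foxo3 was placed before Foxj2 by its higher summed signal (141.9 against 104.0).

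No peak was assigned to the other 30. They include both FoxC genes (Foxc1, Foxc2), both FoxF genes (Foxf1, Foxf2), all of Foxd1, Foxd2, Foxd3 and Foxd4, and all of Foxi1, Foxi2 and Foxi3. Single-member subfamilies without a peak included those of Foxh1, Foxm1 and Foxq1. Foxr1 and Foxr2 also had none. The absence at Foxc1 holds for the optimal list: it had a peak in the conservative list and in the leading calls of each replicate alone. Within subfamilies that had a peak elsewhere, Foxa1, Foxa3, Foxb1, Foxe3, Foxj1, Foxk2, Foxl2, Foxn1, Foxn2, Foxn4, Foxo4, Foxp2 and Foxp3 had none. Several of the 30 have well-known roles in the developing cardiovascular system (Foxc1, Foxc2, Foxf1, Foxh1 and Foxm1), and others are known from other organs, such as Foxn1 in thymus and Foxl2 in ovary. By the nearest-TSS rule, little sequence could give a peak to Foxc2 (9.8 kb), Foxm1 (8.5 kb) or Foxh1 (5.5 kb). Foxc1 had 190.4 kb and Foxf1 112.0 kb. Foxc1 was also the nearest gene of 2 peaks beyond 100 kb. A missing assignment is thus no measure of EP300 absence at these genes.

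**Figure D1:**
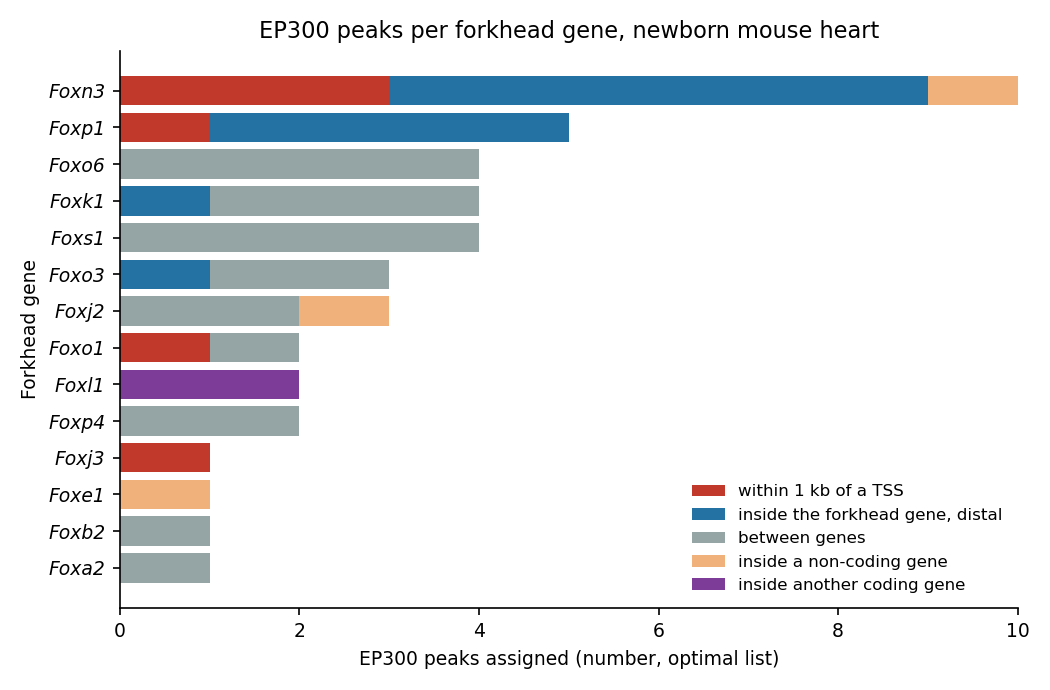
Number of EP300 peaks of the optimal list assigned to each of the 14 forkhead genes with a peak, in newborn mouse heart; the horizontal axis counts peaks, and bar colours mark where the summit lies. Foxn3 has 10 peaks, most of them inside the gene, while the 4 peaks of Foxo6 and the 4 of Foxs1 are all intergenic.

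Forkhead peaks were of usual strength and lay far from promoters. Their median signal was 30.3 (range 9.4 to 96.5), against 30.6 for all assigned peaks. In the signal ranking of the optimal list, 3 of the 43 were among the leading 1000 peaks (6.98%, against 5.79% of all assigned peaks). Only 6 of 43 had their summit within 1 kb of such a TSS (14%, 5.3% to 27.9%), against 37.3% of all assigned peaks, which is above the interval. The median distance from summit to TSS was 30800 bp for forkhead peaks and 5260 bp for all assigned peaks. No test of this difference was run, since peaks of 1 gene are not independent.

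The 37 distal forkhead peaks were spread over several kinds of place. Intergenic sequence held 20, the forkhead gene's own body 12, a non-coding gene 3 and another coding gene 2. The share inside the own gene was 32.4% (18% to 49.8%), against 48.6% of all distal assigned peaks. For 18 of the 43 peaks, the nearest TSS of any gene type, non-coding genes included, was not that of the forkhead gene. When TSSs of all annotated genes were used for the assignment, 7 forkhead genes kept a peak (15.9%, against 27.5% of all genes): Foxa2, Foxb2, Foxe1, Foxj2, Foxj3, Foxl1 and Foxp4 lost theirs.

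The sequence that lay nearest to a forkhead TSS within 100 kb amounted to 4.93 Mb (0.308% of the 1600 Mb near any protein-coding TSS). It held 0.276% of the assigned peaks, or 8.72 peaks per Mb against 9.72 per Mb for all genes. In joined sites the densities were 6.49 and 7.83 per Mb. A further 16 peaks had a forkhead gene as the nearest one but lay beyond 100 kb. The member just inside the limit lay 95198 bp from the Foxa2 TSS with a signal of 29.8, and the one just outside lay 102604 bp from the same TSS with a signal of 43.5.

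**Figure D2:**
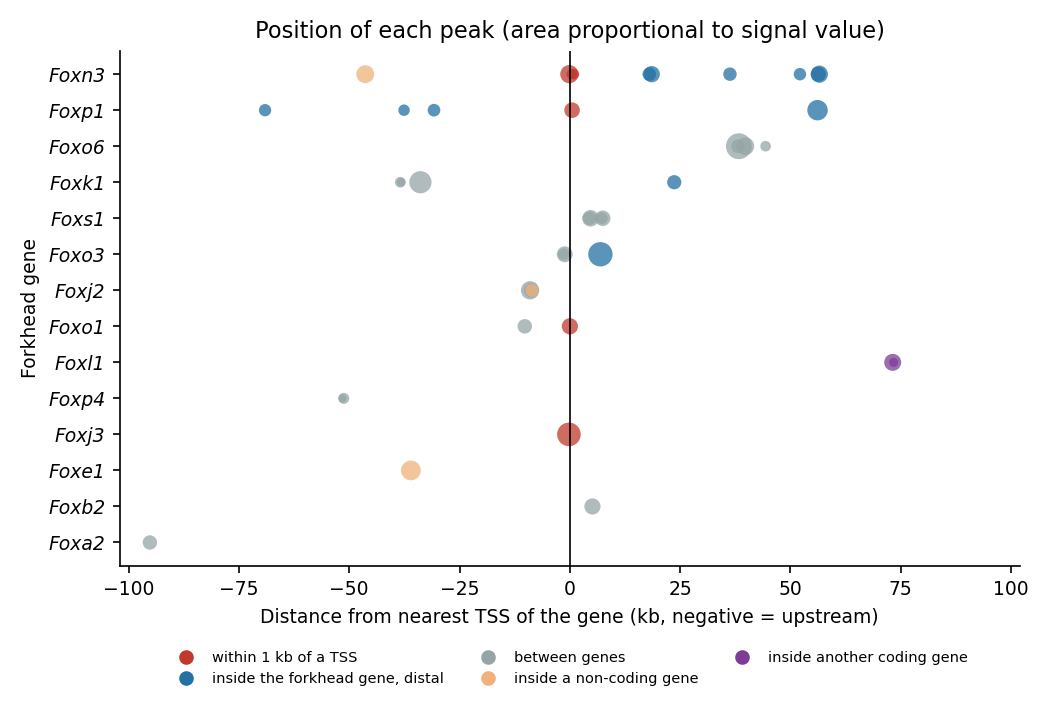
Position of each of the 43 forkhead peaks relative to the nearest TSS of its gene (horizontal axis, kb, negative values upstream), 1 row per gene, point area proportional to the signal value and colour showing the kind of place. Points within 1 kb of a TSS belong to Foxn3, Foxo1, Foxj3 and Foxp1, 2 Foxo3 points lie just outside that distance, and the strongest peak, at Foxo6, lies 38337 bp downstream of its TSS.

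Each peak was looked up in the full call list of each replicate (300000 calls each), taking the strongest call whose summit fell within the span of a peak of usual width centred on its summit. A call was present in both lists for 38 of 43 forkhead peaks (88.4%, 74.9% to 96.1%), against 86.3% of all assigned peaks; replicate 1 held 40 and replicate 2 held 41. Such long lists hold many weak calls, so ranks were read too: 23 of 43 (53.5%, 37.7% to 68.8%) ranked among the leading 17372 calls of both replicates, the length of the optimal list, against 53.4% of all assigned peaks. In the authors' stricter conservative list, 30 of 43 had a summit (69.8%, 53.9% to 82.8%), against 71.4% of all assigned peaks. By joined site, 17 of 32 were leading in both replicates, 7 in replicate 2 only, 3 in replicate 1 only and 5 in neither. Replicate 1 was called against 2 control files and replicate 2 against 1, and the part this plays in their differences was not tested.

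**Figure D3:**
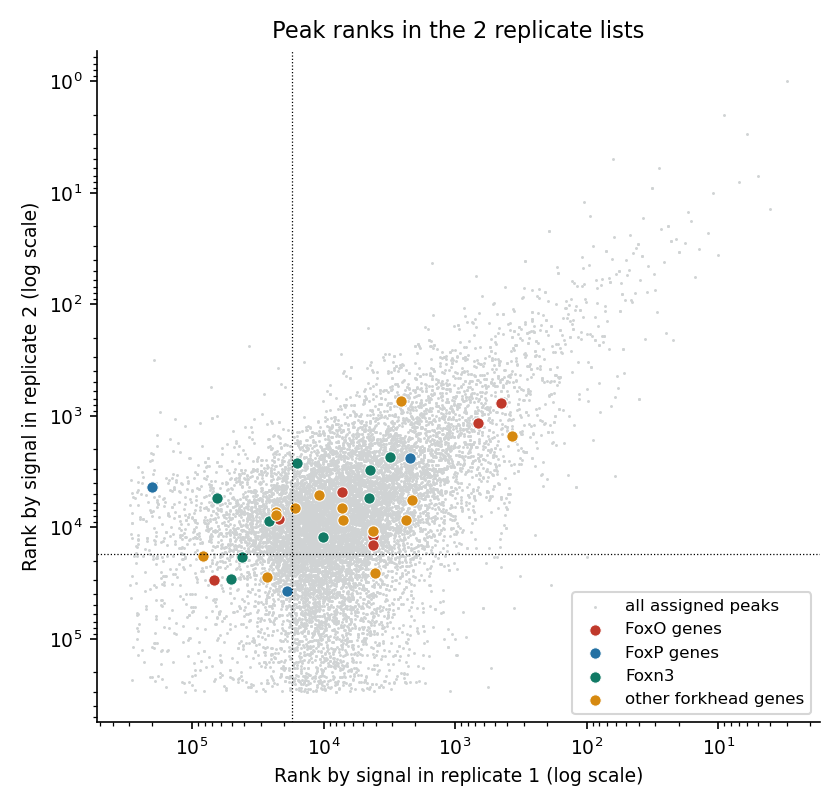
Rank by signal in replicate 1 (horizontal) and replicate 2 (vertical) of the strongest call at each assigned peak, on log axes with the strongest calls at the upper right; grey points are all assigned peaks, coloured points the 38 forkhead peaks found in both lists, and dotted lines mark rank 17372. The upper right of the forkhead points is held by Foxo6, Foxo3, Foxj3 and Foxk1, and several FoxP and Foxn3 points fall left of or below the lines.

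The FoxO genes carried 9 peaks in 7 sites, the strongest of the family among them. Foxo6, a FoxO factor best known in brain and liver, had the strongest peak: signal 96.5 at chr4:120248764-120249259 (mm10), rank 432 in the optimal list. It lay in intergenic sequence 38337 bp downstream of the Foxo6 TSS, with the TSS of Edn2, which encodes the vasoconstrictor endothelin 2, as the next one at 87806 bp. Replicate 1 gave 55.7 (rank 444) and replicate 2 gave 36.9 (rank 773), so both replicates placed it near the top. An overlapping call with its summit at 120249223 had a signal of 26.1. A neighbouring site with its summit at 120247555 had a signal of 45.5 (21.1 at rank 7182 in replicate 1, 19.1 at rank 4843 in replicate 2). The last, with its summit at 120242960, had 16.1 and was weak in both replicates (7.3 at rank 68486 and 8.6 at rank 29546). All 4 Foxo6 calls were thus in 1 stretch downstream of the gene, and only the weakest site fell outside the leading calls of both replicates.

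Foxo3, a FoxO factor that drives atrophy, autophagy and antioxidant genes in muscle, had 3 calls in 2 sites. The stronger, at chr10:42251178-42251673, lay in a Foxo3 intron 6940 bp downstream of a TSS. Its signal was 85.5 (rank 677), with 50.2 in replicate 1 (rank 669) and 32.8 in replicate 2 (rank 1158), high in both. The other site was of 2 calls, with summits 1137 and 1380 bp upstream of a Foxo3 TSS, just outside the promoter distance. Its stronger call, at chr10:42277644-42278139, had a signal of 36.4, with 26.5 in replicate 1 (rank 4199) and 12.7 in replicate 2 (rank 12048), and the weaker had 20. Both Foxo3 sites were among the leading calls of both replicates.

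Foxo1, which controls vessel growth and the response to insulin, had 2 peaks. One, of signal 38.0, sat 17 bp downstream of the TSS, in untranslated sequence of the first exon. Replicate 1 gave 11.8 (rank 21628) and replicate 2 gave 14.9 (rank 8487). The other, of signal 30.3, lay 10203 bp upstream and was called in replicate 1 (20.9, rank 7330) with no call in replicate 2. Neither was thus leading in both replicates. Beyond the distance limit, 2 more peaks had Foxo1 as nearest gene, 175636 and 184230 bp downstream, with signals of 33.6 and 42.1. Foxo4, the remaining FoxO gene, had no peak and no promoter call in either replicate list.

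Windows of 200 bases centred on the strongest peak are printed for 5 of the 6 genes with most peaks, all but Foxs1. They stand where each gene is described, together with those holding a forkhead site. Capitals mark matches on either strand to 13 motifs: forkhead (GTAAACA or ATAAACA), E-box (CAGCTG), the site of GATA factors, which reads AGATAA, ETS (CAGGAAG or CCGGAAG), TEAD (GGAATG), AP-1 (TGACTCA or TGAGTCA), MEIS (TGACAG), KLF and SP (CCCCGCCC), NKX2 (TNAAGTG), the nuclear receptor half-site (AGGTCA, added after the windows had been seen), and, by name, the glucocorticoid receptor, MEF2 and SRF CArG motifs. For the FoxO genes the windows show the forkhead sites at both Foxo3 peaks and the E-box at Foxo6. The Foxo1 stretch is the 200 bases that end 1 base before its TSS.
Foxo6, strongest peak (chr4:120248912-120249111, mm10, plus strand): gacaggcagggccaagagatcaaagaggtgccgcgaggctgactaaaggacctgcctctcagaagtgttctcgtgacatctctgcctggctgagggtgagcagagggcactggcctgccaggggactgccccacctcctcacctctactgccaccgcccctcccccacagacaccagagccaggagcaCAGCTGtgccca
Foxo3, intron peak (chr10:42251326-42251525, mm10, plus strand): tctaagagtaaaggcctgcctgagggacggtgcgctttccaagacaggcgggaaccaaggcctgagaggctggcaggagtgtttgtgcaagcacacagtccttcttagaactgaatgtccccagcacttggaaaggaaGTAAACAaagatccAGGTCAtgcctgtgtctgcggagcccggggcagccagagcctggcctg
Foxo3, upstream peak (chr10:42277792-42277991, mm10, plus strand): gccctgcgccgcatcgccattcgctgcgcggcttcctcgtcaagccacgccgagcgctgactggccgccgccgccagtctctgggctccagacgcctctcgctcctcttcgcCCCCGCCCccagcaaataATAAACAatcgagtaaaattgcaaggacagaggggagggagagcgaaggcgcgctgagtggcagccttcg
Foxo1, upstream of the TSS (chr3:52268136-52268335, mm10, plus strand): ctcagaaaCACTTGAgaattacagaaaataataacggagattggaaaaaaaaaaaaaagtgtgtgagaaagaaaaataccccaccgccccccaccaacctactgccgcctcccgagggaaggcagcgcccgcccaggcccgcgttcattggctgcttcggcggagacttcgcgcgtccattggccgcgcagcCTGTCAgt

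The Foxo6 window held 1 match, the E-box. In the Foxo3 intron window, GTAAACA began 38 bp after the summit, followed by a nuclear receptor half-site. The upstream Foxo3 window held ATAAACA, 30 bp after the summit, and a KLF and SP match beside it. The Foxo1 stretch held an NKX2 match and a MEIS match, both on the minus strand. The window centred on the Foxo1 summit, not printed, held KLF and SP matches at -14 and 12 bp from the summit. It also held the MEIS match already marked in the printed stretch, and no NKX2 match.

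Foxn3, a repressor also known as checkpoint suppressor 1, had the most peaks: 10 calls in 8 sites, 9 of the calls inside the gene on chromosome 12. The strongest, at chr12:99392928-99393423, lay 104 bp upstream of an internal Foxn3 TSS, with a signal of 47.7 (25.8 at rank 4487 in replicate 1, 18.1 at rank 5439 in replicate 2). A weaker call of the same site, of signal 13.6, had its summit at 99393447, with 7.5 in replicate 1 (rank 64279) and 18.1 in replicate 2 (rank 5439), the latter shared with its neighbour. A 3rd promoter call, of signal 16.3, lay 928 bp inside the gene from another TSS and was weak in both replicates (8.1 at rank 50752, 8.7 at rank 28892). Foxn3 thus held 3 of the 6 promoter peaks of the family. Calls with summits from 99336505 to 99393447 were assigned through internal TSSs. They lie more than 100 kb from the outermost Foxn3 TSS, at 99563582. With the outermost TSS only, Foxn3 kept a peak but not these. The sequence nearest to its TSSs was also long, at 370.5 kb. Within the family only Foxp1 (666.0 kb) and Foxp2 (385.5 kb, no peak) had more.

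Inside its introns, the site at chr12:99336257-99336752 had a signal of 42.7, with 29.9 in replicate 1 (rank 3115) and 25.4 in replicate 2 (rank 2355), and an overlapping call of 32.4. That with its summit at 99374506 had 38.5, with 14.1 in replicate 1 (rank 15784) and 24.3 in replicate 2 (rank 2651). The peak at 99356763 lay in a non-coding exon of Foxn3, 256 bp from the start of a Foxn3 transcript that is not protein-coding. It had 25.9, with 17.8 in replicate 1 (rank 10066) and 12.6 in replicate 2 (rank 12149). These 3 sites were leading in both replicates. The peak at 99545476 had 26.7 and was leading in replicate 2 only (10.8 at rank 26062 in replicate 1, 14.7 at rank 8780 in replicate 2). The one at 99340900 had 22.4 and was leading in neither (8.7 at rank 42029, 10.3 at rank 18532). The only Foxn3 peak outside the gene, at chr12:99609650-99610145, lay 46362 bp upstream in an intron of the non-coding gene Gm26839. Its signal was 46.2, with 26.1 in replicate 1 (rank 4403) and 22.9 in replicate 2 (rank 3089). A further 4 peaks in Foxn3 introns, with signals from 13.8 to 31.5, were not counted. They lay 108440 to 135658 bp from the nearest TSS of a protein-coding Foxn3 transcript. Starts of other Foxn3 transcripts were closer to those with signals of 31.5 and 25.0, at 21754 and 6645 bp.

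Both Foxn3 windows are printed for contrast: the promoter window is rich in G and C and held no match, and the intronic one held a forkhead site on the minus strand, read GTAAACA there, 81 bp after the summit.
Foxn3, internal promoter peak (chr12:99393076-99393275, mm10, plus strand): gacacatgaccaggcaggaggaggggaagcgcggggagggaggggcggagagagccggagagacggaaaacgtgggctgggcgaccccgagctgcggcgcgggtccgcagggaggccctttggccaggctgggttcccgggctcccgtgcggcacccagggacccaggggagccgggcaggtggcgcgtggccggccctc
Foxn3, intron peak (chr12:99545376-99545575, mm10, plus strand): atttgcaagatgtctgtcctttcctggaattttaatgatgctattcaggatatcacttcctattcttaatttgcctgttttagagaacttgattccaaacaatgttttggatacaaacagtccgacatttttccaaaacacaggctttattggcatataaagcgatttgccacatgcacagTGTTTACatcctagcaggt

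Foxp1, needed for outflow tract and heart muscle development, had 5 peaks in 5 sites, all inside the gene. The strongest, at chr6:99378936-99379431, lay 56161 bp downstream of a TSS in an intron that also belongs to the predicted gene Gm20696. Its signal was 60.1, with 34.0 in replicate 1 (rank 2215) and 25.3 in replicate 2 (rank 2379). It was the only Foxp1 peak leading in both replicates. The promoter peak, 516 bp inside the gene from an internal TSS, had a signal of 35.0, with 26.1 in replicate 1 (rank 4395) and no call at that place in replicate 2.

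The other Foxp1 peaks were each clear in no more than 1 replicate. The peak 30788 bp upstream of its nearest TSS had a signal of 23.2, with no call in replicate 1 and 21.5 in replicate 2 (rank 3655). The peak 37576 bp upstream of the same TSS had 19.0, with 5.0 in replicate 1 (rank 201540) and 19.9 in replicate 2 (rank 4374). The peak 69086 bp upstream of its nearest TSS had 21.9, with 12.7 in replicate 1 (rank 18960) and 7.9 in replicate 2 (rank 37295). Each of these upstream positions is counted from an internal TSS and lies in a Foxp1 intron. When each gene was given its outermost TSS only, Foxp1 had no assigned peak, so its count rests on those internal TSSs. Foxp4, a close relative of Foxp1, had 1 site of 2 calls 51241 bp upstream with signals of 17.4 and 9.4, called in replicate 2 (12.8 at rank 11717) and not in replicate 1. Foxp2, known for its role in speech circuits of the brain, and Foxp3, the regulator of regulatory T cells, had none.

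The Foxp1 windows are shown for the contrast between its intronic and promoter peaks. The first held a nuclear receptor half-site on the minus strand and the second an ETS match.
Foxp1, strongest peak (chr6:99379084-99379283, mm10, plus strand): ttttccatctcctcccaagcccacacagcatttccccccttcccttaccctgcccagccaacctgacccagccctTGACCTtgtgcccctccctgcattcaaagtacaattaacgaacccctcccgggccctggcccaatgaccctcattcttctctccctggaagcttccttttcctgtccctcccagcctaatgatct
Foxp1, promoter peak (chr6:99095589-99095788, mm10, plus strand): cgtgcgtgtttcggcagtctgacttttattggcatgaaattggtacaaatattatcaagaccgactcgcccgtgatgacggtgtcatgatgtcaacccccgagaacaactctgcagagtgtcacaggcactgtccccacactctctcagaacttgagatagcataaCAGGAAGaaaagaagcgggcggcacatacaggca

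Foxk1, first described as a nuclear factor of muscle progenitor cells and a regulator of glycolysis, had 4 calls in 3 sites. The strongest, at chr5:142367389-142367884, lay in intergenic sequence 33860 bp upstream of the TSS. Its signal was 70.9, with 32.1 in replicate 1 (rank 2591) and 37.5 in replicate 2 (rank 736), and the Foxk1 TSS was the nearest of any gene type. The intronic peak, 23674 bp downstream of a TSS, had 29.2 and was leading in replicate 2 only (11.5 at rank 22907 in replicate 1, 15.6 at rank 7741 in replicate 2). The remaining site held calls of 16.4 and 10.7, 38426 and 38223 bp upstream, and was leading in neither replicate (6.9 at rank 82916 and 10.4 at rank 18212). Foxk2, its paralog, had no peak, although both replicate lists held a promoter call there, of 17.9 in replicate 1 and 7.2 in replicate 2.

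Foxs1, a gene marked by expression in pericytes and sensory neurons, had 4 calls in 2 sites downstream of the gene. The site at chr2:152928261-152928756, 4699 bp from the TSS, had a signal of 39.7, with 21.1 in replicate 1 (rank 7181) and 16.6 in replicate 2 (rank 6732), and an overlapping call of 26.7. The site at chr2:152925499-152925994, 7461 bp from the TSS, had 34.8, with 26.6 in replicate 1 (rank 4174) and 13.4 in replicate 2 (rank 10729), and an overlapping call of 20. Both were leading in both replicates. They lay between Foxs1 and Mylk2, which encodes the myosin light chain kinase of striated muscle: the Mylk2 gene body was 5441 bp and 2679 bp away, and its TSS 17157 and 14395 bp away. Which of the neighbours either site acts on, if any, was not measured. The window of the strongest Foxs1 peak, not printed, held an ETS match and a TEAD match.

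The Foxk1 window is shown for a pair of nuclear receptor half-sites 1 base apart.
Foxk1, strongest peak (chr5:142367537-142367736, mm10, plus strand): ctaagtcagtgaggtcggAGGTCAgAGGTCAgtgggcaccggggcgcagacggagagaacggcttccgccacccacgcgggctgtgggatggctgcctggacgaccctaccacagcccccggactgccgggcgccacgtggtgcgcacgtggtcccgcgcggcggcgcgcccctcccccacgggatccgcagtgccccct

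The FoxJ genes split. Foxj3, which activates Mef2c in muscle, had 1 promoter peak, at chr4:119539220-119539715, 193 bp upstream of a Foxj3 TSS. Its signal of 80.4 (rank 836) came with 58.8 in replicate 1 (rank 366) and 29.7 in replicate 2 (rank 1515), the strongest promoter call of the family in both. The summit lay in a non-coding exon of Frg2f1, whose nearest annotated start was 61 bp away, so the 2 genes' promoters cannot be told apart here. The Foxj3 TSS used is an internal one, and with the outermost TSS only, Foxj3 had no assigned peak. Foxj2 had 1 site of 3 calls 9001 to 8571 bp upstream, with signals of 48.5, 30.7 and 24.8; the strongest gave 33.0 in replicate 1 (rank 2376) and 14.8 in replicate 2 (rank 8675). The TSS of Slc2a3, which encodes the glucose transporter GLUT3, was nearly as close to that call, at 9273 bp. Much closer was a start of Gm5112, a gene not annotated as protein-coding. It lay 257, 29 and 173 bp from the 3 summits in the same order, the last of them in a Gm5112 exon. Foxj1, the master regulator of motile cilia, had none.

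The remaining genes had 1 or 2 peaks each. Foxe1, a thyroid factor, had a peak of 56.2 at 36024 bp upstream, in an intron of the non-coding gene Gm12446, with 34.4 in replicate 1 and 17.7 in replicate 2. Foxl1, a factor of gut mesenchyme, had 2 overlapping calls of 41.6 and 12.0 73201 and 73414 bp downstream, in an intron of the predicted gene Gm20388 and 694 bp from the start of the non-coding gene 5033426O07Rik (26.9 in replicate 1, 9.0 in replicate 2). Its neighbour Foxc2 had its TSS 84970 bp from the same summit. Foxb2, a factor of the developing nervous system, had a peak of 37.6 at 5133 bp downstream (17.1 and 18.6 in replicates 1 and 2), with the start of the non-coding gene AC128703.1 2420 bp away. Foxa2, a pioneer factor of endoderm, had a peak of 29.8 at 95198 bp upstream (11.5 and 15.9 in replicates 1 and 2), and 3 more lay beyond the limit.

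At promoters, 4 of 44 forkhead genes (9.09%, 2.53% to 21.7%) had a peak of the optimal list within 1 kb of a TSS, against 19% of all protein-coding genes, a value inside the interval. These were Foxn3, Foxp1, Foxo1 and Foxj3. In the full replicate lists, which hold far weaker calls, 12 forkhead genes (27.3%, 15.0% to 42.8%) had a promoter call in both, against 42.2% of all genes. Replicate 1 held one at 19 genes and replicate 2 at 18, and 19 genes had none in either. Beside the 4 genes named, the 12 were Foxo3, Foxk2, Foxc1, Foxc2, Foxp4, Foxm1, Foxp3 and Foxd4. Each replicate's strongest call within 1 kb of any TSS of the gene was taken, so the calls need not lie at the same place. Foxp1 gave 26.1 in replicate 1 and 8.3 in replicate 2 (rank 32638), with no replicate 2 call at its promoter peak. Foxc1 gave 7.9 in replicate 1 and 11.7 in replicate 2, Foxc2 11.8 and 6.1, and Foxm1, a driver of mitosis in dividing heart muscle cells, 4.6 and 6.2. The Foxm1 values lie near the weakest calls of the lists, which had signals of 4.33 and 4.0, while the Foxc1 call of replicate 2 ranked 14117 and so was among its leading calls. Foxn2 had a promoter call of 24.1 in replicate 1 and none in replicate 2.

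CpG-rich promoters were common in the family. In the 300 bases from 250 before to 50 after a TSS, 29 of 44 forkhead genes (65.9%, 50.1% to 79.5%) reached a GC content of 55% and a CpG observed-to-expected ratio of 0.6, against 48.1% of all protein-coding genes. Among these 29, 4 had a promoter peak (13.8%, 3.89% to 31.7%), against 31.2% of all genes with such a promoter, a value inside the interval. All 4 forkhead genes with a promoter peak were CpG-rich. This comparison was chosen after the promoter counts had been seen. A gene was counted by any of its TSSs, so the CpG-rich TSS need not be the one with the peak. Foxd2, Foxf1 and Foxf2 are examples of CpG-rich forkhead genes with no promoter call in either replicate.

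**Figure D4:**
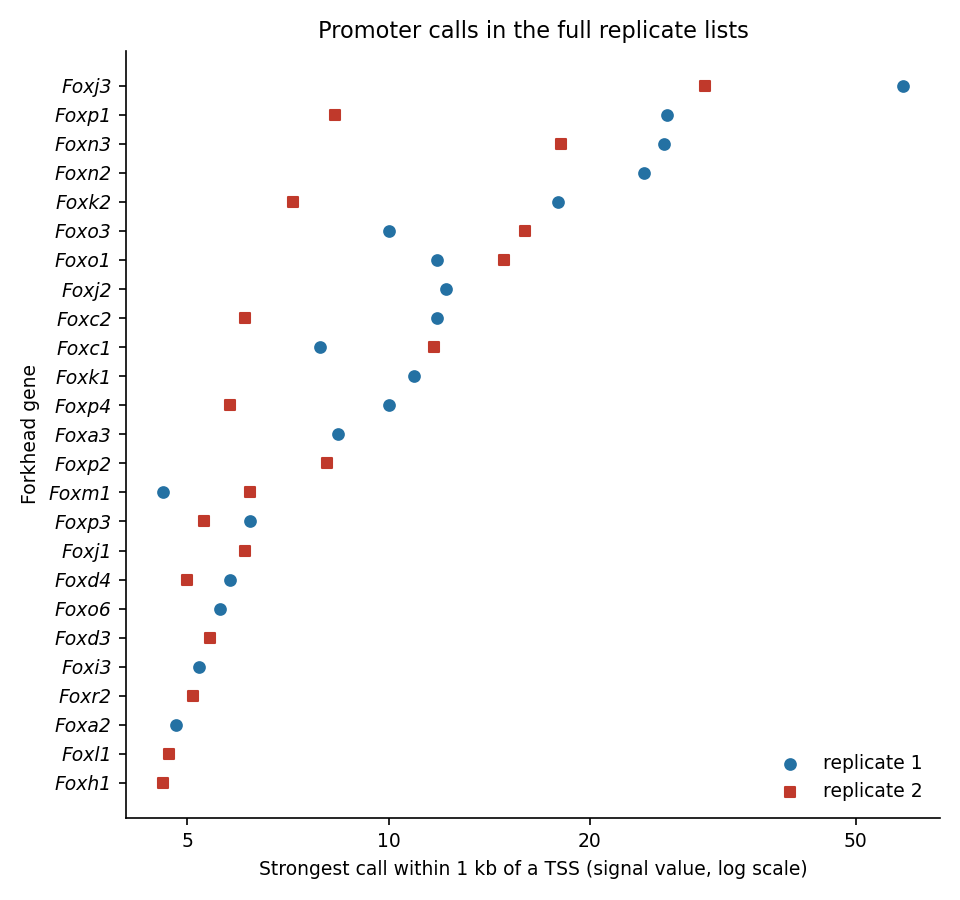
Signal of the strongest call within 1 kb of a TSS in the full list of replicate 1 (circles) and replicate 2 (squares), on a log axis, for the 25 forkhead genes with such a call in either list. Foxj3 stands highest in both replicates (58.8 and 29.7), and 13 genes have a call in 1 replicate only.

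Motif letters at the 37 distal forkhead peaks were read against those at all 11529 distal peaks of the optimal list, in windows of 200 bases. A forkhead site was present in 3 windows (8.11%, 1.7% to 21.9%), against 7.95% of all distal peaks and inside the interval. The 3 are the Foxo3 and Foxn3 windows printed above. The E-box stood in 18.9% against 20.9%, TEAD in 21.6% against 17.8%, MEIS in 18.9% against 21.5%, NKX2 in 10.8% against 11.7%, and the nuclear receptor half-site in 18.9% against 17.9%. GATA stood in 5.41% (0.661% to 18.2%) against 17.2%, and ETS in 13.5% against 21.1%. MEF2 matched 0 of 37 windows (0% to 9.49%) against 7.31%, and the CArG box 0 against 1.67%. AP-1 stood in 2.7% against 7.04%, KLF and SP in 2.7% against 2.65%, and the glucocorticoid receptor motif in 8.11% against 6.26%. For each of these motifs, the share over all distal peaks lay inside the exact interval of the forkhead share. Overlapping calls share sequence, so the windows are not independent, and a match is no evidence of binding.

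Lists of genes around the forkhead factors were counted by the same rule and read against the 31.9% of all genes. These lists were chosen with earlier results of these data known. A share above that value is therefore a description and no independent support for enrichment. Of the insulin and AKT pathway genes that control FoxO proteins, 13 of 16 had a peak (81.2%, 54.4% to 96.0%). Leading them were Ywhaz with 10, which encodes a 14-3-3 protein of the kind that retains FoxO in the cytoplasm, the kinase gene Sgk1 with 7 and the insulin receptor gene Insr with 6. Of known FoxO targets, 17 of 23 had a peak (73.9%, 51.6% to 89.8%), led by the cell-death gene Bcl2l11 with 9 (strongest signal 170.7), Txnip, an inhibitor of thioredoxin, with 9 (109.1), and the cell-cycle inhibitor Cdkn1b with 5. Of FoxO cofactors and modifiers, 9 of 13 had one (69.2%, 38.6% to 90.9%), led by Ppargc1a, which encodes the coactivator of mitochondrial genes PGC-1α, with 9, the β-catenin gene Ctnnb1 with 5 and the EP300 paralog Crebbp with 2.

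Among endothelial partners and targets of FoxC and FoxO factors, 17 of 19 had a peak (89.5%, 66.9% to 98.7%), led by the VEGF receptor gene Kdr with 10, the ETS factor gene Fli1 with 9 and the Notch receptor gene Notch1 with 9. FoxM1 targets stood at 8 of 15 (53.3%, 26.6% to 78.7%), led by the cyclin gene Ccnd1 with 3, the centromere genes Cenpf with 3 and Cenpa with 2. For the cilia targets of FoxJ1 the count was 3 of 12 (25.0%, 5.49% to 57.2%): the axonemal dynein genes Dnah9 and Dnah5 with 2 each and Spag6 with 1. For the liver targets of FoxA it was 2 of 12 (16.7%, 2.09% to 48.4%), G6pc and Ttr with 1 each. The lists differ in gene length and in the distance to neighbouring genes, and the part these play was not tested. G6pc, Pck1 and Igfbp1 stand in both the FoxO and the FoxA list.

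Cell type markers were counted in the same way, as a description and no test of the tissue label. These lists too were chosen with earlier results of these data known. All 10 heart muscle markers had a peak (100%, 69.2% to 100%, 108 peaks in all). All 6 endothelial markers did too (100%, 54.1% to 100%, 33 peaks in all), against 31.9% of all genes. Liver, neuron and blood markers stood at 1 of 6 each (16.7%, 0.421% to 64.1%), an interval that holds the share of all genes. Of the endothelial markers, Kdr, Cdh5, Tek and Tie1 also stand in the endothelial list above, so the counts are not separate observations. In whole tissue, fewer cells of a type and less binding per cell cannot be told apart.

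**Figure D5:**
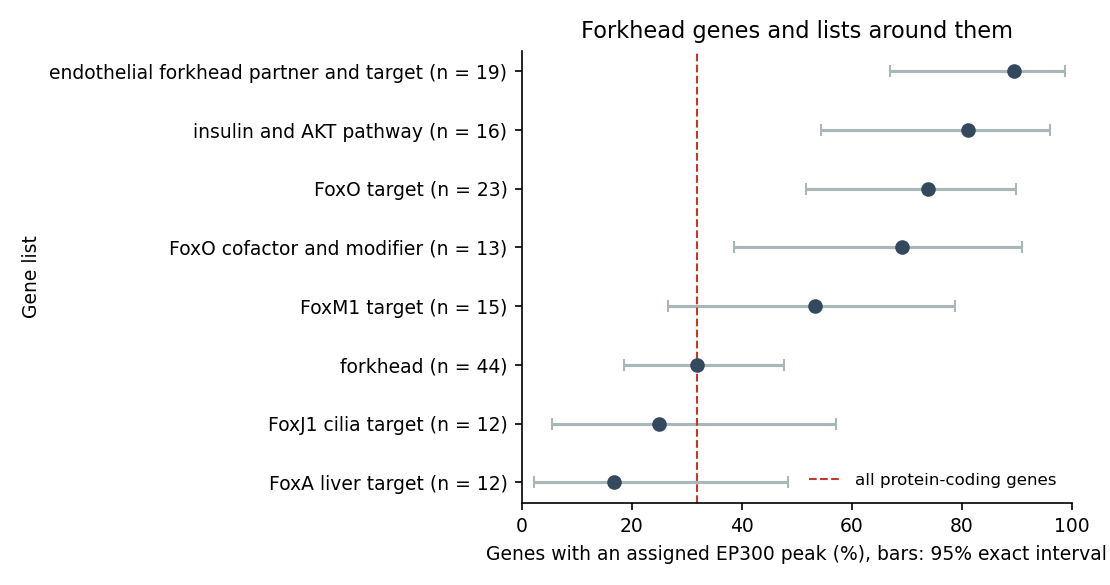
Share of genes with an assigned EP300 peak (horizontal axis, percent) in the forkhead family and in 7 lists of related genes; points are shares, bars 95% exact intervals, and the dashed line marks the 31.9% of all protein-coding genes. The forkhead genes lie on the line at 31.8%, and the insulin and AKT, FoxO target, FoxO cofactor and endothelial lists have intervals wholly above it. The lists were chosen with earlier results of these data known, so their place is descriptive only.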

How the data were processed

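EP300 ChIP-seq peaks of newborn mouse heart were deposited as 5 lists on mm10 (GRCm38): 1 for each of the 2 replicates, 1 for their pooled reads, and the optimal and conservative IDR lists. Per the file headers, replicate 1 and the pooled reads were called against 2 control files and replicate 2 against 1. Not given in the sources used here were aligner, peak caller and IDR threshold. The authors deposited a signal value and a −log10 q-value for every peak. For IDR peaks their deposited score is a scaled IDR with a maximum of 1000. The files hold no read numbers, so the depth is unknown. A peak can stand in the optimal list with a call in 1 replicate only.

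Summits were placed on the GRCm38 sequence and GENCODE M21, after a check that all lie inside their chromosomes. Of 17372 optimal peaks, the 33 off the main chromosomes were left out, and 15570 of the other 17339 lay within 100 kb of one of 54327 protein-coding TSS positions. Peaks within 1 kb of a TSS were called promoter peaks. Sites join summits within 496 bp, the usual peak width. Replicate matches are the strongest call with its summit inside a peak of that width centred on the summit, a choice of strongest over nearest made after the data had been seen. Shares carry 95% Clopper-Pearson intervals. Motifs were searched on both strands in 200 bases at each summit. Python 3.11.15, pandas 2.3.3, SciPy 1.17.1 and pysam 0.24.0 were used, and the scripts were tested on simulated data. The members and lists were chosen with earlier results of these data known. Forkhead genes are named, except 1 without a peak that is not reported here, the 6 with most peaks are described peak by peak, and the 3 genes with most peaks are named from each other list, with ties in both cases settled by summed signal. Neighbouring genes, genes given by their promoter calls and the examples of CpG-rich promoters were named after their values were seen. Alternatives were the distance limit, the promoter distance, the TSS set, the peak list, a signal above the median, the match distance, the window and leaving out each replicate.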

Additional observations from a re-analysis of the deposited data

How the results depend on the processing

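Of 93 alternative values, 84 stayed within 1.5 times a reported count or inside a reported share's interval, and 9 did not. With a signal above the median, forkhead peaks numbered 21, FoxO cofactor genes with a peak 5 and FoxM1 target genes 4, which follows from keeping fewer peaks. With TSSs of all annotated genes, forkhead peaks numbered 27, forkhead genes with a peak 7 and FoxJ1 cilia targets 1, since peaks nearest to other genes were then lost. The share of forkhead peaks in both replicates was 60.5% with a match within 100 bp and 53.5% among leading peaks only.

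In lists of the leading calls of a single replicate (without replicate 1 and without replicate 2), forkhead peaks numbered 34 to 39, and forkhead genes with a peak 16 in both. Without replicate 2, 12 of the 14 genes kept a peak, Foxc1, Foxd3, Foxk2 and Foxn2 gained one, and Foxa2 and Foxp4 lost theirs. Without replicate 1, all 14 kept one, and Foxc1 and Foxn2 gained one. FoxJ1 cilia targets numbered 2 to 5 and the promoter share ranged from 14.7% to 17.9%. The conservative list kept 13 of the 14 genes, adding Foxc1 and losing Foxp4. With the outermost TSS only, Foxj3 and Foxp1 lost theirs, and Foxn3 lost the calls assigned through its internal TSSs. Forkhead peaks then numbered 30. No paired analysis was possible because there is 1 group and no comparison between groups. The depth is unknown, and whether the 2 replicate lists measure the spread between animals is not settled by the labels.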
